A study of Mus musculus with 6 samples.

Results

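The Krüppel-like factors other than Klf1 were examined in long-term hematopoietic stem cells (LT-HSCs) of WT and Foxm1 HET mice. The set held 10 gene names, Klf2, Klf3, Klf4, Klf6, Klf7, Klf9, Klf10, Klf12, Klf13 and Klf16, taken as the rows carrying these symbols in the deposited normalized table and their read counts from the count table. All 10 names had a row in the count table of 27179 genes, and 9 had one in the normalized table of 12179 genes, since Klf16 was absent from it. The normalized table held 13 Klf genes in all, so 4 detected members of the family (Klf1, Klf5, Klf8 and Klf11) were outside the set. The names were selected on no stated cutoff but with the WT and Foxm1 HET counts of these same libraries known, so the genotype differences given for them are a description and not independent evidence.

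RNA-Seq was performed on CD150+CD48-LSK cells sorted from the bone marrow of C57BL/6 mice at 8 weeks of age, with 3 WT and 3 Foxm1 HET libraries. Foxm1 HET stands for mice with loss of 1 allele of Foxm1, a forkhead transcription factor. The titles of these libraries name a floxed Foxm1 allele with its wild-type partner and no Cre, the study used Tie2-Cre (active in endothelial and blood cells) and Mx1-Cre to delete that allele. For other experiments the study's methods use the name Foxm1 HET for Tie2-Cre Foxm1 fl/+ mice and take Foxm1 fl/+ mice as controls, whereas its RNA-Seq section names neither a driver nor the alleles of the controls, which the labels give as wild type. The 6 libraries held 14573002 to 25798509 counted reads and 4467 to 9894 genes with at least 10 reads, both lowest in Foxm1 HET replicate 2. Foxm1 itself had 1182, 2615 and 2942 reads across WT replicates against 659, 5 and 742 across Foxm1 HET replicates, so no Foxm1 HET library reached the lowest WT library. Such triplets of values are given here and below in the order of replicates 1, 2 and 3. Among LT-HSC markers, Kit and Hlf had 10720 reads or more in all 6 libraries. Slamf1, which encodes the CD150 used for sorting, had 1572 reads in WT replicate 2 and 543 in Foxm1 HET replicate 3 but no more than 8 in the other libraries. Ly6a, which encodes the Sca-1 of the same sort, had 2261 and 1597 reads in Foxm1 HET replicates 1 and 3 and at most 125 in the others. Likeness between libraries of the same genotype overlapped that between genotypes. Across genes, which are not independent replicates, Pearson's r of log2 CPM (reads scaled to library size) was 0.289 to 0.327 within WT, 0.358 to 0.441 within Foxm1 HET and 0.306 to 0.443 between them. A single gene could therefore have many reads in 1 library and almost none in another of the same genotype, and this spread sets the precision of every value below.

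Krüppel-like factors are zinc finger transcription factors that bind CACCC and GC-rich elements in promoters. They share these elements with the related Sp factors, and they differ mainly in the part of the protein outside the fingers. Klf3, Klf8 and Klf12 bind the corepressor CtBP and act as repressors. Klf2, Klf4, Klf6 and Klf7, like Klf1 and Klf5, carry acidic activation domains, and Klf9, Klf10, Klf11, Klf13, Klf14 and Klf16 recruit the corepressor Sin3. In blood, Klf1 drives the red cell program, Klf4 promotes monocyte differentiation, and Klf2 holds lymphocytes and monocytes in a quiescent state. Several family members are also induced within minutes to hours by stress, serum or cytokines, in the manner of immediate-early genes.

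To place the genes in the genome, their promoters were read from RefSeq sequences of build GRCm38.p6, each running from 250 bases before to 50 bases after the annotated transcription start. A promoter was found for 8 of the 10 genes, with none for Klf10 and Klf16. The windows were searched on both strands for a cell cycle homology region (CHR, TTTGAA), the element through which Foxm1 is recruited to G2/M genes with the MuvB complex, and for the forkhead core TAAACA. The CHR was present in the Klf6 promoter and in no other of the 8, against 17.9% of 32851 mouse promoters. The forkhead core was present in the promoters of Klf4 and Klf9, 2 of 8, against 13.4% of all promoters. A match of so few letters is a description of the sequence and not a binding site. The promoters of Klf4 and Klf9 are shown because they hold the forkhead core, a short stretch of Klf6 because it holds the CHR, and the promoter of Klf12 as the member without any of the motifs searched. Each is written 5′ to 3′ on the strand of its gene, with the match in capitals, which in Klf4 is the reverse complement of the core:
Klf4, 250 bases before the start, chr4:55532476-55532725, minus strand: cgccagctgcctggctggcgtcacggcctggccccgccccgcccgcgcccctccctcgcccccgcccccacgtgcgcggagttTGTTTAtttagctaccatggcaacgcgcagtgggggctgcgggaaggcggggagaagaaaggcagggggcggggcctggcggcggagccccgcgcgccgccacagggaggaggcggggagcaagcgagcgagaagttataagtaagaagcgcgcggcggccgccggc
Klf9, 250 bases before the start, chr19:23140976-23141225, plus strand: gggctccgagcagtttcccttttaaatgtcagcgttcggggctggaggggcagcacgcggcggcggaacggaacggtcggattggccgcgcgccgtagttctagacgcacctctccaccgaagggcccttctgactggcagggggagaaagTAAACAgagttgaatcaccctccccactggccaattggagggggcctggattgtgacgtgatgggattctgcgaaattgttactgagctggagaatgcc
Klf6, 30 bases around the CHR, chr13:5861494-5861523, plus strand: tggcagcggagcTTTGAAtagggaagtttt
Klf12, 250 bases before the start, chr14:100149797-100150046, minus strand: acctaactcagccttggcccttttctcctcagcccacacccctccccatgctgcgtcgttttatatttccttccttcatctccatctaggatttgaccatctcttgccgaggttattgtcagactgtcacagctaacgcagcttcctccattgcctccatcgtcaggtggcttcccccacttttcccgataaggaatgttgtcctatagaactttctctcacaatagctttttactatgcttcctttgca

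The match in Klf4 begins 167 bases before the annotated start, that in Klf9 begins 99 bases before it, and that in Klf6 begins 17 bases after it. The motifs that the family itself binds were searched in the same windows. The GC box GGGCGG was present in 6 of the 8 promoters (Klf2, Klf3, Klf4, Klf6, Klf7 and Klf13) against 35.7% of all promoters, and the CACCC box CCACCC in 4 (Klf2, Klf3, Klf7 and Klf13) against 31.5%. In Klf13 1 GC box and 1 CACCC box overlap. Neither the cAMP response element TGACGTCA nor the CArG box of serum response factor was present in any of the 8, against 1.79% and 1.63% of all promoters. Most of the windows were rich in G and C, with 76.7% in Klf3 at the top and 45.7% in Klf12 at the bottom, against a median of 52.7% over all promoters. Klf4 held the most CG dinucleotides, 40, and Klf12 the fewest, 6, against a median of 7.

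Klf6 was the most abundant of the 10 genes in every library. Levels of different genes were compared as TPM, in which reads are divided by gene length before scaling each library to a common total. Klf6 had 832, 435 and 457 TPM across WT replicates against 525, 379 and 305 TPM across Foxm1 HET replicates. It supplied from 36.0% (WT replicate 2) to 75.1% (WT replicate 3) of the summed TPM of the 10 genes. The summed level itself was 1285, 1206 and 609 TPM across WT replicates against 1092, 774 and 543 TPM across Foxm1 HET replicates, so the genotypes overlapped. Below Klf6, the order by median TPM over the 6 libraries was Klf13 (51.7), Klf3 (37.9), Klf10 (37.6), Klf4 (33.4), Klf2 (24.0), Klf12 (18.3), Klf9 (7.07) and Klf7 (0.159), and Klf16 had no reads. Every neighboring pair from Klf13 to Klf9 overlapped in its range over libraries, and their order is not resolved by these data. Klf6, with a lowest value of 305 TPM and a highest of 832 TPM, overlapped the range of Klf4, whose highest value was 347 TPM in WT replicate 2, yet within each library Klf6 was ahead.

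**Figure D1:**
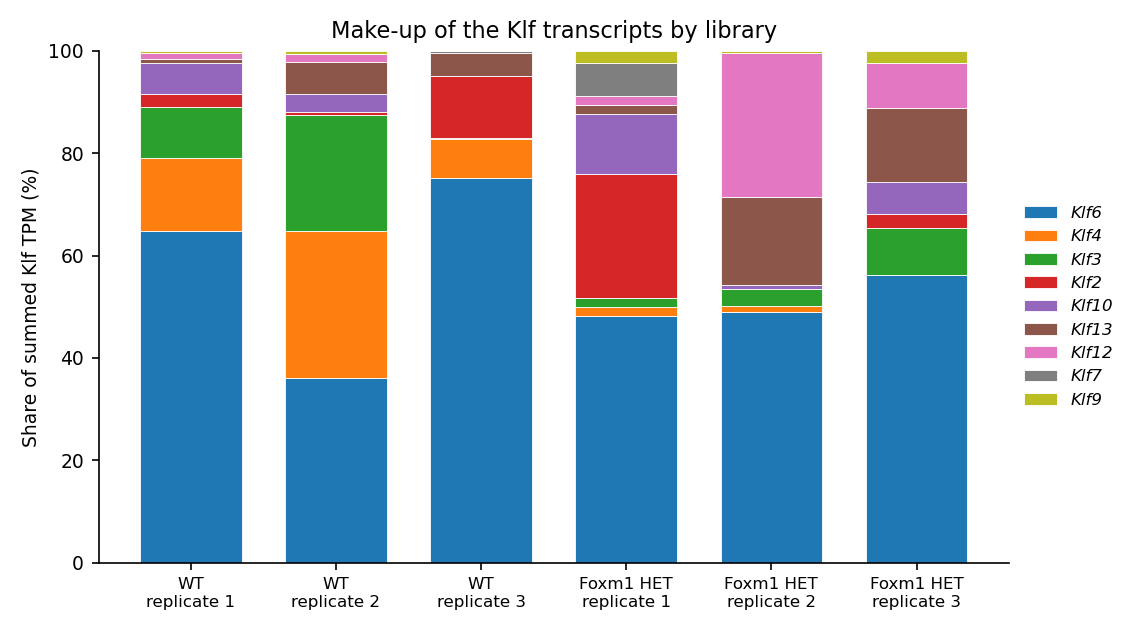
Share of the summed TPM of the 10 Klf genes (vertical axis, %) taken by each gene in each of the 6 libraries (bars); Klf16 had no reads and is not drawn. Klf6 takes the largest share in every bar, from 36.0% to 75.1%, while the gene in second place changes from library to library and Klf4 (orange) takes 7.73% to 28.8% of the WT bars and 0.0616% to 1.81% of the Foxm1 HET bars.

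The make-up below Klf6 changed from library to library. The second gene was Klf4 in WT replicates 1 and 2 (14.2% and 28.8% of the summed TPM) and Klf2 in WT replicate 3 (12.2%). In Foxm1 HET it was Klf2 in replicate 1 (24.2%), Klf12 in replicate 2 (28.1%) and Klf13 in replicate 3 (14.5%). Between 1 and 3 of the 10 genes had 3 reads or fewer in a library, and between 4 and 9 had at least 100. WT replicate 3 held the lowest log2 CPM for 4 of the 8 genes that could be tested, and it held the lowest value for 29.0% of all genes tested.

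Genotypes were compared with edgeR's quasi-likelihood test on the counts over all 8195 genes that passed its filter on low counts. The filter kept 8 of the 10 Klf genes and left out Klf7 and Klf16. None of the 8 had an adjusted p under 0.05, against 0.329% of all genes tested, and their adjusted p-values ran from 0.702 to 0.998. DESeq2, limma-voom, limma on log2 CPM with a pseudocount of 1 or 0.1, and limma on the normalized table also called 0 of them, with no adjusted p given for Klf12 by DESeq2. At an unadjusted p under 0.05 were Klf4 and Klf12, 2 of the 8, against 6.03% of all genes tested. Klf4 was the 1 gene whose Foxm1 HET libraries all lay below its WT libraries, against 4.55% of all genes, and 0 had all Foxm1 HET libraries above, against 4.12%. With library size only Klf12 was above without overlap, against 5.06% of all genes, and with upper-quartile scaling Klf9 and Klf12 were, against 5.31%. In the normalized table Klf4 was likewise the 1 of 9 genes lower without overlap, against 3.77% of its 12179 genes. Of the 8 fitted differences 5 were above and 3 below 0 (2 below with RLE scaling, where Klf6 turned), and their median was 0.27 on the log2 scale beside -0.26 over all genes tested. The median over all genes moved with the scaling, to -0.13 with RLE, 0.14 with upper-quartile scaling and 0.10 with library size only. By edgeR's estimate the biological coefficient of variation was 1.66, and the median standard error of a log2 fold change was 2.59. In sorted cells measured in bulk, fewer cells with a transcript and less transcript per cell cannot be told apart.

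**Figure D2:**
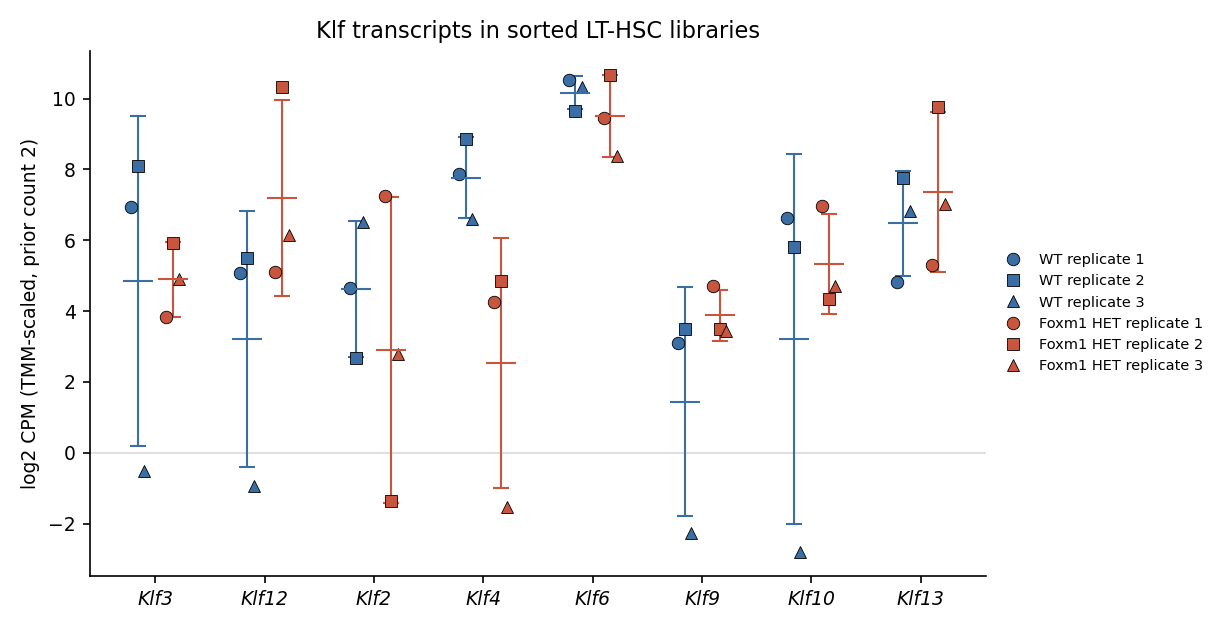
Log2 CPM (vertical axis, TMM-scaled with a prior count of 2) of the 8 Klf genes tested, in 3 WT (blue) and 3 Foxm1 HET (red) libraries; symbols mark replicates, horizontal lines the group means and bars the SD. Klf6 sits between 8.38 and 10.7 in all libraries, Klf4 is the only gene here whose groups do not overlap with this scaling, and WT replicate 3 lies far below the other WT libraries in Klf3, Klf9, Klf10 and Klf12.

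Among the activators, Klf4 showed the clearest separation. Klf4, a regulator of monocyte differentiation and one of the factors used to reprogram cells to pluripotency, lies on chromosome 4 at 55527137 to 55532475 on the minus strand. In WT it had most reads in replicate 2, with 10478, then 5126 in replicate 1 and 1536 in replicate 3. In Foxm1 HET its 731 reads in replicate 1 were the most, with 185 in replicate 2 and 11 in replicate 3. Even the WT library with fewest reads was thus above the Foxm1 HET library with most. Mean log2 CPM amounted to 7.77 ± 1.14 in the WT group and to 2.52 ± 3.53 in the Foxm1 HET group (SD, n = 3 each). The fitted log2 fold change of Klf4 was -4.04 with a standard error of 2.02 and an adjusted p of 0.806 by edgeR, and the exact permutation test, two-sided, gave 0.1, the smallest p that 3 against 3 libraries allow. Leaving out 1 library at a time gave -4.70 to -3.38. The genotypes stayed apart with each other scaling and filter and in the normalized table. The other tests used the same TMM-scaled values or kept their order, so they could not change this separation. Leaving out a library from groups already apart could undo it only through rescaling. With 1 library left out, 6.01% to 9.60% of all genes were lower in Foxm1 HET without overlap. In the share of Klf transcripts, Klf4 made up 14.2%, 28.8% and 7.73% across WT replicates against 1.81%, 1.18% and 0.0616% across Foxm1 HET replicates. Markers of monocytes and macrophages, cells in which Klf4 is active, overlapped between the genotypes. The summed CPM of the 7 listed genes, led by Lyz2, was 1995 to 4052 in WT, 4276 in Foxm1 HET replicate 1, and 903 and 756 in replicates 2 and 3, and their part in the Klf4 values was not tested.

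Klf6, first described as an injury-induced activator of promoters with GC boxes and present here at high level, varied least. The gene lies on chromosome 13 at 5861489 to 5870393. It had 32364, 18155 and 20686 reads across WT replicates against 26920, 10592 and 13911 across Foxm1 HET replicates. Mean log2 CPM amounted to 10.17 ± 0.457 in the WT group and to 9.51 ± 1.15 in the Foxm1 HET group (SD, n = 3 each), with overlap between the groups. The spread within genotypes, 0.875, was lower than that of all but 3.69% of the genes tested, whose median was 3.13. Among the 37 genes with a mean at least as high as that of Klf6 the median spread was 0.964, and 13 of them varied less. The fitted difference of Klf6 was -0.41 (standard error 1.33, adjusted p 0.998 by edgeR), and with RLE scaling it was 0.25. With 1 library left out it ran from -0.02 (without Foxm1 HET replicate 3) to -1.13 (without Foxm1 HET replicate 2). In the latter fit the Klf6 groups did not overlap, as for 6.01% of all genes lower in Foxm1 HET there.

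Klf2, which maintains quiescence of T cells and is induced by flow in endothelium, was set apart by single libraries. It lies on chromosome 8 at 72319062 to 72321654. Its reads were 559, 142 and 1451 across WT replicates against 5841, 2 and 286 across Foxm1 HET replicates, so that the highest and the lowest value both came from Foxm1 HET. The fitted difference was 0.39 (standard error 2.30), while the mean log2 CPM was higher in WT, 4.61 ± 1.92 against 2.90 ± 4.31 (SD, n = 3 each). These measures differ in sign, as the fit compares mean counts, in which the 5841 reads of Foxm1 HET replicate 1 weigh most. Without that library the fitted difference of Klf2 was -3.34.

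Klf7 (chromosome 1, 64035663 to 64121389), a regulator of neuronal genes, was found at more than 42 reads in 1 library only. It had 3, 1 and 42 reads across WT replicates against 1182, 0 and 0 across Foxm1 HET replicates. With no filter the fitted difference was 3.56 with a standard error of 3.73. A possible further limit on Klf7 is that 38.2% of the stretches of 50 bases in its annotated transcripts also occur in Gm26649, in either orientation. The annotated transcripts hold 8128 such stretches, while the counted exons of Klf7 span 1344 bases. Whether the shared stretches lie in the counted exons was not tested. For the other 9 genes the share of stretches found in other genes was 5.35% (Klf12), 3.48% (Klf3), and under 1% or 0 in the rest. No exon base of any of the 10 genes was shared with another gene of the count table.

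Among the CtBP-binding repressors, Klf12 was higher in Foxm1 HET in its fitted value and Klf3 lower, and neither passed the test. Klf12, known as a repressor of the AP-2alpha gene, spans chromosome 14 from 99870632 to 100149796. It had 744, 1024 and 7 reads across WT replicates against 1303, 8288 and 2992 across Foxm1 HET replicates. Each Foxm1 HET library held more reads than any WT library, but after TMM scaling Foxm1 HET replicate 1 (5.10 log2 CPM) lay below WT replicate 2 (5.50), so the groups overlapped by this measure. With library size only or upper-quartile scaling they did not. Mean log2 CPM amounted to 3.21 ± 3.61 in the WT group and to 7.19 ± 2.76 in the Foxm1 HET group (SD, n = 3 each). The fitted log2 fold change of Klf12 was 4.13 with a standard error of 1.84 and an adjusted p of 0.702 by edgeR, and the exact permutation test gave 0.2. Foxm1 HET replicate 2 carried much of it, since without this library the value was 1.04, against 3.52 to 4.74 without any other.

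Klf3 (chromosome 5, 64803523 to 64830129), a repressor that also restrains Klf1 targets in red cells, had 2723, 6233 and 10 reads across WT replicates against 541, 396 and 1249 across Foxm1 HET replicates. A pair of WT libraries lay above all Foxm1 HET libraries and the third WT library far below them. The fitted difference was -1.93 (standard error 2.07), while the mean log2 CPM of Klf3 was nearly equal, 4.85 ± 4.67 in WT and 4.89 ± 1.05 in Foxm1 HET (SD, n = 3 each).

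The Sin3-binding repressors of the set were Klf9, Klf10, Klf13 and Klf16, and the fitted differences of the 3 tested were smaller than their standard errors. Klf9 (chromosome 19, 23141226 to 23166911), which is induced by glucocorticoid and thyroid hormone, had 189, 254 and 2 reads across WT replicates against 999, 72 and 447 across Foxm1 HET replicates. Klf10 (chromosome 15, 38294413 to 38300707), the TGF-beta-inducible early gene, had 2170, 1259 and 1 reads across WT replicates against 4728, 130 and 1100 across Foxm1 HET replicates. Klf13 (chromosome 7, 63886351 to 63938915), a regulator of chemokine expression in T cells, had 629, 4870 and 1823 reads across WT replicates against 1490, 5654 and 5449 across Foxm1 HET replicates. The genotypes overlapped in all of these. Klf9 and Klf10 shared 1 feature with Klf3 and Klf12, a near absence in WT replicate 3, where these 4 genes had 1 to 10 reads, whereas Klf2, Klf4, Klf6 and Klf13 had 1451 or more there.

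The fitted log2 fold changes were 1.27 for Klf9 (standard error 2.92), 0.15 for Klf10 (2.23) and 1.54 for Klf13 (1.67). That of Klf9 kept its sign with each library left out, from 0.66 to 1.85. That of Klf10 was -0.47 without WT replicate 3 and -1.09 without Foxm1 HET replicate 1. That of Klf13 was -0.45 without Foxm1 HET replicate 2. Klf16 (chromosome 10, 80567121 to 80577296), a repressor first described in brain, had 0 reads in all 6 libraries, where a count of 0 allows up to 0.116 to 0.206 CPM at a floor of 3 reads. It was therefore not detectable at this depth.

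**Figure D3:**
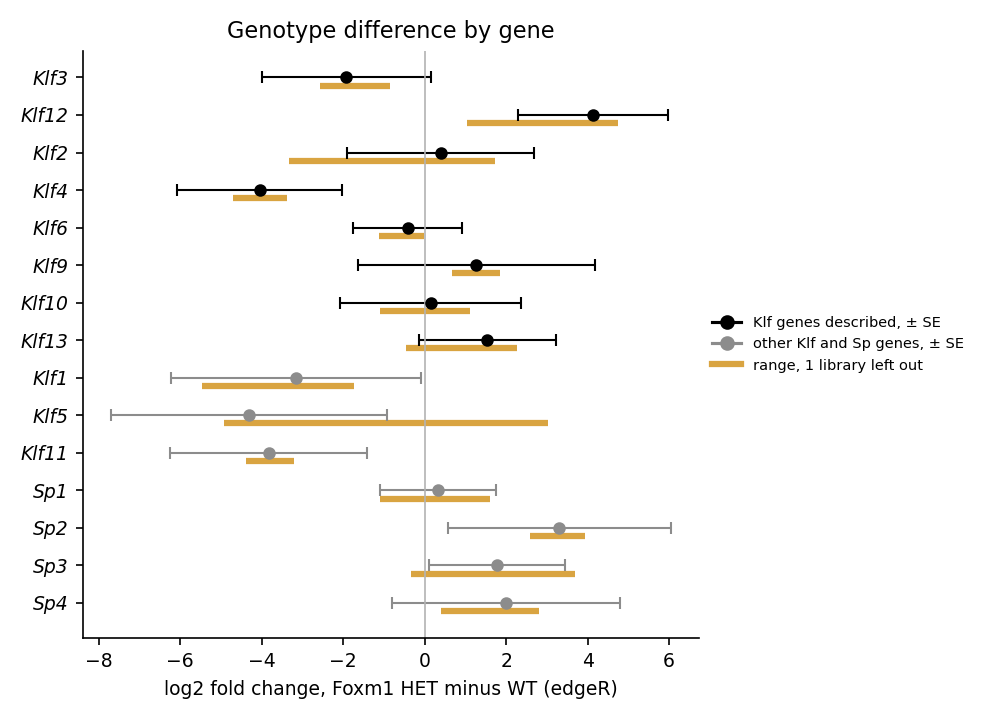
Fitted log2 fold change, Foxm1 HET minus WT (horizontal axis), with its standard error for the 8 Klf genes tested (black) and the other Klf and Sp genes tested (grey); yellow bars span the values with 1 library left out. Klf4 and Klf12 lie farthest from 0 among the black points, at -4.04 and 4.13, and the yellow bar of Klf12 reaches down to 1.04.

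The Klf genes outside the set were compared from the same fit. Of 7 such genes 3 passed the filter, all with fitted values below 0 and none with an adjusted p under 0.05. Klf11, a TGF-beta-inducible relative of Klf10, had 3021, 4232 and 298 reads across WT replicates against 515, 0 and 440 across Foxm1 HET replicates. The difference fitted for Klf11 was -3.83 (standard error 2.42, adjusted p 0.941 by edgeR). Its groups did not overlap after TMM or RLE scaling, and with upper-quartile scaling or library size only they overlapped. Klf1, the erythroid factor, had 1212, 456 and 0 reads across WT replicates against 33, 1 and 307 across Foxm1 HET replicates, with a fitted value of -3.16 (standard error 3.06). Klf5, an activator of epithelial growth genes, had 514 reads in WT replicate 1 and at most 24 elsewhere. Klf8 had 1446 reads in Foxm1 HET replicate 3 and at most 5 elsewhere, and Klf14, Klf15 and Klf17 had none.

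The Sp factors bind the same GC boxes, and Sp1 to Sp4 were detected while Sp5 to Sp9 had 0 reads. The fitted differences of the 4 tested were all above 0, from 0.33 for Sp1 to 3.30 for Sp2 (with library size only, that of Sp1 was -0.16, and without Foxm1 HET replicate 2 those of Sp1 and Sp3 were -1.11 and -0.34), and 0 had an adjusted p under 0.05. Sp1, a broadly used activator, had 7630, 27156 and 1701 reads across WT replicates against 12753, 10241 and 6693 across Foxm1 HET replicates. Sp2 had 10, 207 and 130 reads across WT replicates against 4255, 5 and 2627 across Foxm1 HET replicates, so its higher value came from a pair of libraries.

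Genes that act with, upstream or downstream of the Krüppel-like factors were then described from lists, each with 0 genes at an adjusted p under 0.05 by edgeR. At an unadjusted p under 0.05 by edgeR were Fbxo32, 1 of 7 tested on its list, and Nr4a2, 1 of 13 on its list. The other lists of such genes held 0. Of the LT-HSC markers, 1 of 10 tested was also under 0.05, and the share over all genes tested was 6.03%. Without overlap after TMM scaling, 4.55% of all genes tested were lower in Foxm1 HET and 4.12% higher. The lists' counts above and below 0 are those with TMM scaling and shift with the scaling, most for the immediate-early genes. Among 10 corepressors and coactivators, all tested, 6 fitted values were above 0 and 4 below (7 and 3 with each other scaling). Of the corepressors themselves, Ctbp1 had 435, 2177 and 663 reads across WT replicates against 616, 17 and 626 across Foxm1 HET replicates, and Sin3b had 1, 212 and 3 reads across WT replicates against 1264, 1144 and 932 across Foxm1 HET replicates. Sin3b was higher without overlap between genotypes under each scaling and Ctbp1 lower without overlap with TMM and RLE scaling but not the others, at fitted values of 4.59 (standard error 2.77) for Sin3b and -2.22 (2.62) for Ctbp1. Ctbp2, the paralog of Ctbp1, had a fitted value of the opposite sign, 3.24 (3.11), with 11, 114 and 25 reads across WT replicates against 489, 36 and 2044 across Foxm1 HET replicates. Its groups did not overlap with TMM, RLE and upper-quartile scaling and overlapped with library size only. The acetyltransferases Ep300 and Crebbp were the most abundant of the list by reads, with fitted values of 2.11 (1.38) and -0.97 (1.37).

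The MEK5-ERK5-MEF2 route induces Klf2 and Klf4 in endothelium and other cells. Of its 8 listed genes 7 were tested, 2 with fitted values above 0 and 5 below (4 and 3 with library size only). Mef2a, a transcription factor at the end of the route, had 1798, 7446 and 647 reads across WT replicates against 288, 2 and 1280 across Foxm1 HET replicates, and its groups did not overlap with TMM and RLE scaling but did with the others. Its fitted value was -3.55 with a standard error of 2.23 and an adjusted p of 0.941 by edgeR. Map3k3, a kinase at the start of the route, had a fitted value of 3.48 (standard error 2.74). It was higher in Foxm1 HET without overlap under each scaling, as were 4.12% of all genes tested with TMM.

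Ubiquitin ligases that mark Krüppel-like factors for degradation gave 4 values above 0 and 3 below among 7 tested of 8 (5 and 2 with library size only). Fbxo32, known to target Klf4, came nearest to the threshold, with a fitted value of 6.54 (standard error 1.81) and an adjusted p of 0.0747 by edgeR. Its reads were 6, 610 and 207 across WT replicates against 14, 24254 and 149 across Foxm1 HET replicates, so 1 library held nearly all of them and the groups overlapped. Among genes known as Klf targets, 8 of 10 were tested, with 2 values above 0 and 6 below (3 and 5 with each other scaling). S1pr1, the lymphocyte egress receptor that Klf2 activates, had 460, 459 and 39 reads across WT replicates against 2468, 1026 and 1375 across Foxm1 HET replicates, with a fitted value of 2.56 (standard error 2.40). The S1pr1 groups did not overlap under any scaling, as for 4.12% of all genes higher in Foxm1 HET with TMM. Thbd, the thrombomodulin gene activated by Klf2 and Klf4, had 8625, 9 and 45 reads across WT replicates against 2605, 3 and 469 across Foxm1 HET replicates, with a fitted value of -2.29 (2.13). Cdkn1a, the p21 gene that Klf4 and Klf6 activate, had 301, 39 and 0 reads across WT replicates against 349, 47 and 264 across Foxm1 HET replicates.

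Klf4, Klf6 and Klf10 respond early to stress, so the immediate-early genes were placed beside them. Of 15 listed genes 13 were tested, 6 with values above 0 and 7 below (9 and 4 with RLE or upper-quartile scaling, 4 and 9 with library size only). Nr4a2 and Atf3, 2 of the 13, were lower in Foxm1 HET without overlap and 0 were higher, against 4.55% and 4.12% of all genes tested. Their fitted values were -5.50 (standard error 1.85, adjusted p 0.26 by edgeR) and -3.73 (1.97, adjusted p 0.854). The most abundant genes of the list, Dusp1 and Zfp36, had fitted values of 0.51 (standard error 1.15; -0.02 with library size only) and 0.74 (1.15). The summed level of the list was 11085 to 11582 CPM in WT and 7670 to 14416 CPM in Foxm1 HET.

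Markers of other cells that a sort could carry were present in part. Summed neutrophil markers were at 4745 to 13704 CPM in WT and 1383 to 7637 CPM in Foxm1 HET, and endothelial markers at 31.6 to 396 CPM and 89.3 to 301 CPM, with Plvap at 0 in all libraries. Of the 8 neutrophil markers tested, 1 was lower and 1 higher in Foxm1 HET without overlap after TMM scaling. The shares over all genes tested were 4.55% and 4.12%. Erythroid markers were at 62.9 to 119 CPM in WT and 195 to 289 CPM in Foxm1 HET, with no overlap. Of these, Car1 had at least 2319 reads in every Foxm1 HET library, and Gata1 and Hba-a1 were at 0 in all. T and NK cell and megakaryocyte markers did not exceed 30.5 CPM. Ighm, a B cell marker, had 39407, 5886 and 1115 reads across WT replicates against 3815, 311 and 8627 across Foxm1 HET replicates, with overlap. The part of these cells in the Klf values was not tested.

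**Figure D4:**
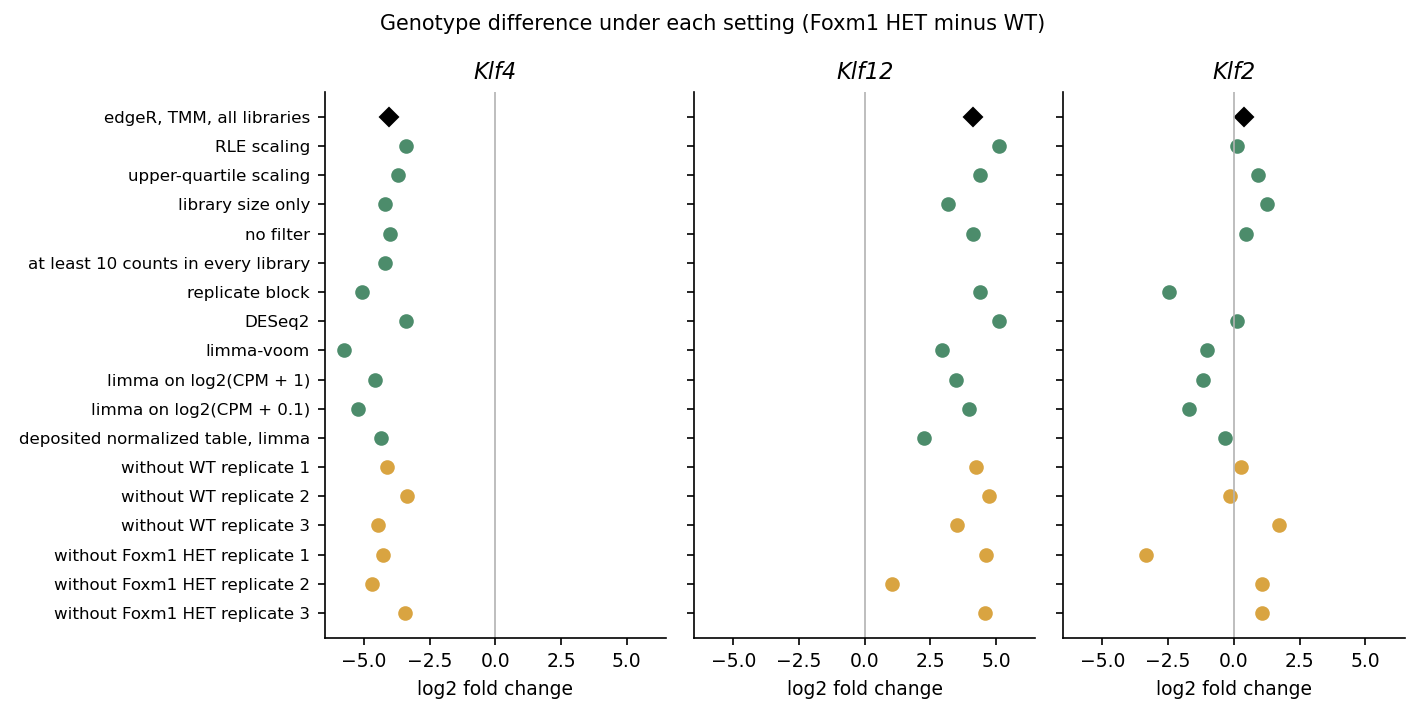
Fitted log2 fold change, Foxm1 HET minus WT (horizontal axes), of Klf4, Klf12 and Klf2 under each setting named at the left; black diamonds are the values reported, green circles other scalings, filters and tests, and yellow circles fits with 1 library left out. Klf4 stays below 0 in all rows, Klf12 stays above 0 in all rows where it was tested, and Klf2 falls on both sides of 0.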

How the data were processed

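LT-HSC libraries were sequenced by the authors in 50 bp single-read mode, and STAR 2.7.2b placed the reads on GRCm38. The counting program and its use of strand are not given in the sources used here, and the labels and the paper name different library kits, the former a stranded one. Deposited read counts per gene came with gene lengths, and the authors also gave a normalized table on a log2 scale that ranks genes as counts per length do. PCR duplicates cannot be told apart in such counts. Intervals and floors therefore cover counting error only, and precision rests on the spread between libraries, which the study took from 3 pairs of mice.

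Libraries were grouped by the genotype in the labels. The counts were fitted in edgeR 4.0.16 (R 4.3.3) using the default filter (minimum count 10), TMM scaling and Benjamini-Hochberg adjustment over 8195 genes. Standard errors were taken as the size of the log2 change over the root of the F statistic. For log2 CPM the prior count was 2, and TPM used the deposited gene lengths. DESeq2 1.42.0 and limma 3.58.1 were alternatives, beside other scalings, filters, pseudocounts (1 and 0.1), a replicate block and leaving out each library. The fit was tested on simulated data. The exact permutation test was two-sided.

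The members and the gene lists were chosen with earlier results of these data known. Named were every member, the other Klf and Sp genes, Foxm1, and from each other list at most the 2 genes with the smallest p and the 2 with the highest mean CPM. Ctbp1, Ctbp2, Cdkn1a and single marker genes were named outside that rule, after their values were seen. Protein features were not analysed here. Some marker genes are not reported here.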

Additional observations from a re-analysis of the deposited data

How the results depend on the processing

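No Klf gene of the set reached an adjusted p under 0.05 in any alternative run, although these called from 0 (limma on log2 CPM) to 194 (DESeq2) genes in all. Of 132 recomputed fold changes of single genes, 119 kept their direction and 13 turned. Klf4, Klf9 and Klf12 never turned. The number of genes with non-overlapping genotypes was 3 with upper-quartile scaling (Klf4, Klf9 and Klf12), 2 with library size only (Klf4 and Klf12), and 1 to 2 with 1 library left out. Over all genes, in either direction, the share was 8.57%, 7.97% and 15.0% to 21.6% under these settings, against 8.68% as reported. The median log2 fold change of the genes was -1.31 where at least 10 counts in every library were required, which left 4 genes (Klf3, Klf4, Klf6 and Klf13), and -0.69 to 1.06 with 1 library left out. Klf6 turned to 0.25 with RLE scaling and 0.25 in DESeq2, and Klf3 to 0.030 on log2(CPM + 0.1). Klf2 turned to -1.02 in limma-voom, -1.16 on log2(CPM + 1), -1.69 on log2(CPM + 0.1) and -0.32 in the normalized table. With 1 library left out, the range was -3.34 to 1.73 for Klf2, -1.09 to 1.11 for Klf10 and -0.45 to 2.27 for Klf13. The causes were not tested beyond the libraries named with these genes.

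The replicate numbers in the labels were checked for pairing. Deviations of same-numbered libraries from their group means correlated at r = 0.02, -0.03 and -0.07 across 8195 genes. The study took its mice in pairs, and the labels do not say which libraries form a pair. Libraries of the same genotype were so unlike each other that these correlations cannot show whether same-numbered samples were paired. With a replicate block 0 of the genes and 0 of all genes were called, against 27 without it, the median over the Klf genes was 0.09, Klf4 was at -5.07 and Klf2 at -2.46.

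With 3 libraries a group, no gene with a log2 fold change smaller in size than 6.65 was called by edgeR.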
